A study of Drosophila melanogaster with 9 samples.

Results

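Transcripts of the larval *Drosophila* CNS with the insulin receptor (InR) overexpressed in glia were compared with control on 6 of the 9 arrays of the study. The InR group was 3 CNS samples of repoGal4>UAS-InR larvae, in which *repo-Gal4* drives the receptor transgene in glia. The control group was 3 CNS samples of repoGal4/+ larvae, which carry the driver and no UAS transgene. The groups thus also differ by the UAS line and any background it brings, which cannot be told apart from receptor expression. The other 3 arrays were of repoGal4>UAS-Htl[ACT] larvae, which express an activated FGF receptor under the same driver. They entered the fit, and are used here only where InR tissue was compared with Htl[ACT] tissue directly. Every sample was the whole CNS of 10 to 15 wandering larvae of the last instar grown at 25 degrees, and each genotype was prepared in triplicate. Whether each sample of a triplicate was a separate dissection day is not stated, so p-values measure the spread between these samples, which may be technical.

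The insulin receptor is a receptor tyrosine kinase that signals through PI3 kinase and Akt to the TOR kinase and restrains the transcription factor FoxO. In the larval brain this pathway links nutrition to growth, and it acts both in the neuroblasts that generate neurons and in the glia that surround them. Glia of the CNS fall into classes by position. Perineurial and subperineurial glia cover the surface and form the blood-brain barrier, cortex glia wrap neuronal cell bodies, and neuropil glia line axons and synapses. The homeobox gene *repo*, whose enhancer gives the driver its pattern, is active in nearly all of these lateral glia. The driver is therefore not limited to 1 class of glia.

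Each value is a linear MAS5 signal of 1 probe set, with the 2% trimmed mean of each array brought to 500.0, and signals are compared only within a probe set. Median signals were 36.8 to 41.8 on InR arrays and 31.5 to 38.9 on control arrays, so that signals of about this size and below lie near background. Standard errors on the log2 scale had a median of 0.48 over all 18769 probe sets and 0.13 over those above the median mean signal of 31.3. The median log2 fold change was -0.03 over all probe sets and -0.10 over the brighter ones, and every change is relative to this scaling. A signal sums over all cells of the sample, and every array took the same amount of RNA. Fewer cells of a type, less RNA per cell and dilution by RNA of other cells therefore cannot be told apart. Salivary gland and fat body transcripts stood apart on single arrays, with the *Sgs* genes high on InR array 2 and control array 2 and fat body genes high on InR arrays 2 and 3 and control array 2. These values are given with the genes of other tissues.

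The glial gene *repo* was higher in InR overexpressing tissue. Its signal was 5510, 5461 and 5914 on the InR arrays, against 3545, 3055 and 3449 on the control arrays. The groups did not overlap, and *repo* rose 1.68-fold, or by 0.75 on the log2 scale (standard error 0.07; limma, adjusted p = 4.01e-05). The probe set of *InR* itself read 976, 799.5 and 786.6 on the InR arrays, against 1192, 965.5 and 852 on the control arrays. These groups overlapped, at -0.23 on the log2 scale (standard error 0.17; limma, adjusted p = 0.478). Whether the probes of this probe set lie in the part of the gene carried by the UAS transgene was not tested, so it gives no check of the labels. The neuronal gene *elav*, an RNA-binding protein of neurons, read 6071, 5909 and 6122 in InR tissue against 8779, 7555 and 8054 in control tissue, or -0.43 on the log2 scale (limma, adjusted p = 0.0121), which is under 1.5-fold.

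Probe sets were called where InR and control means differed by 1.5-fold or more and the p-value, adjusted over all probe sets by the Benjamini-Hochberg method, was 0.05 or less. By this rule 892 probe sets (4.75% of those tested) were higher and 552 (2.94%) were lower in InR tissue. Among the 11982 genes named singly, each given by its brightest probe set, 726 (6.06%) were higher and 445 (3.71%) lower. All 3 InR signals lay above all 3 control signals in 16.3% of these genes and below them in 22.1%, so that non-overlap alone is common. Of the 7492 genes above the median mean signal, 8.85% were called higher and 5.71% lower. Increases were larger than decreases, with 566 probe sets higher by at least 2-fold and 98 lower by at least 2-fold. Of all called probe sets, 61.8% were higher, and median centring of the arrays gave 717 higher and 850 lower, or 45.8%. By chromosome arm, the share of genes higher ranged between 5.34% on the X and 6.92% on 2R over the 5 large arms.

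**Figure D1:**
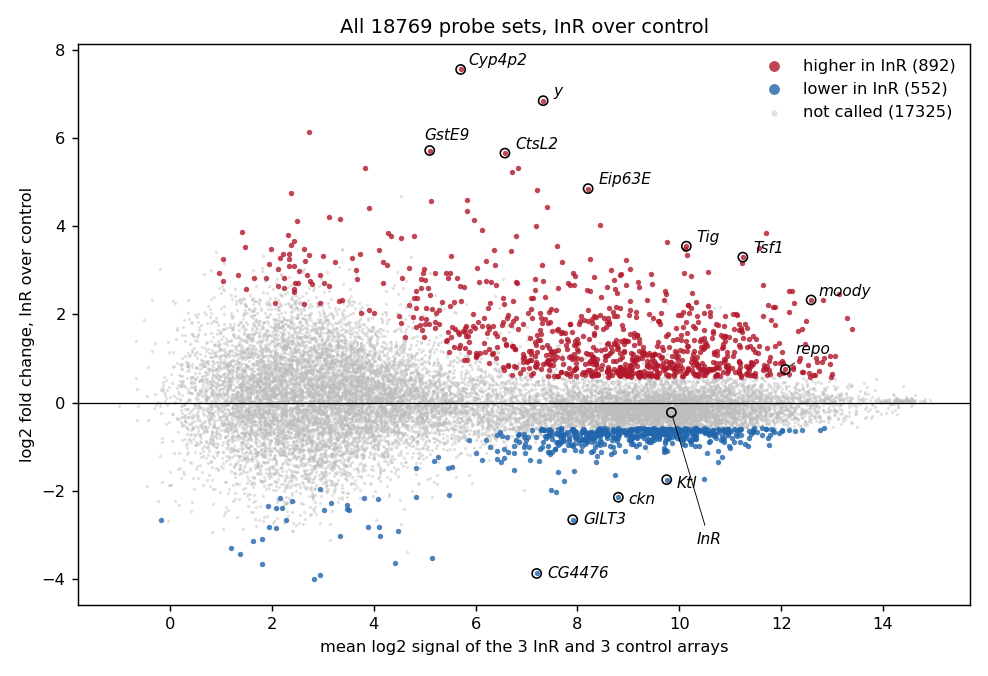
Log2 fold change of InR over control arrays (vertical axis) against the mean log2 signal of the 6 arrays (horizontal axis) for all 18769 probe sets, with called probe sets in red (892 higher) and blue (552 lower) and named genes circled. Higher probe sets reach log2 fold changes of 7.56 (*Cyp4p2*), while below a mean signal of 31.3 the grey cloud of uncalled probe sets widens.

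Among the glial lists, the largest increases were in some of the surface glial genes, while others of that list did not rise. Of 12 analysed genes 4 rose and none fell, against 6.06% of all genes called higher. The median log2 fold change was 0.41, with 9 values above 0 and 3 below. The G protein-coupled receptor gene *moody*, which acts in the subperineurial glia of the blood-brain barrier, read 13220, 13440 and 14790 in InR tissue, against 2815, 2352 and 3128 in control tissue. Every InR array lay above every control array, and *moody* rose by 2.33 on the log2 scale (standard error 0.11, adjusted p = 1.87e-07 from limma). *Mdr65*, an ABC transporter gene of the same barrier, read 12260, 10540 and 9869 against 2629, 2745 and 3748, and rose by 1.85 (adjusted p = 5.59e-06). *scaf*, a gene of the serine protease fold, read 4133, 4101 and 4350 against 619.8, 457.3 and 559.6, and rose by 2.95 (adjusted p = 1.19e-07), the largest change of the list. *kay*, the *Drosophila* Fos gene, rose by 1.01 (adjusted p = 0.00529). The study saw a *kay* fusion protein in cortex as well as surface glia, so this gene is not particular to surface glia. It also tabled *kay* as increased on these samples, so this call is not independent evidence. Among the uncalled members, the gap junction gene *ogre* and the lipid droplet gene *Lsd-2* had log2 fold changes of 0.44 and 0.36, while the sugar transporter genes *Tret1-1* and *pippin* had -0.25 and -0.67. *pippin* read 89.4, 106 and 131.4 in InR tissue against 134.3, 188.4 and 196.2 in control tissue, without overlap. It was not called (adjusted p = 0.173 from limma), but passed as lower with the replicate number as a block (0.0227). The labels do not say what a replicate number stands for. Each block result, here and below, therefore rests on a reading of the values.

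Changes were smaller among cortex glial genes. Of 7 cortex glial genes 2 rose, against 6.06% of all genes, at a list median of 0.13. They were *hry*, a bHLH repressor gene that read 1076, 1433 and 1280 in InR tissue against 462.6, 775.4 and 794.1 in control tissue (log2 fold change 0.93, adjusted p = 0.00703 from limma), and *zyd*, a sodium, calcium and potassium exchanger gene (0.62, adjusted p = 0.00207). Without control array 1, *zyd* was under 1.5-fold, at 0.51. The call of *hry* differs from the study, which marked it, as *hairy*, as not significantly increased in InR tissue. The study used a permutation method and left out probes classed as absent in any sample. The cortex glial immunoglobulin gene *wrapper* read 3466, 3769 and 2974 in InR tissue, against 3300, 3183 and 3375 in control tissue. These groups overlapped, at a log2 fold change of 0.04 with a 95% interval of -0.16 to 0.25, and median centring turned its sign. Compared directly with Htl[ACT] tissue (12880, 12150 and 10860), *wrapper* was lower in InR tissue by 1.82 on the log2 scale (adjusted p = 9.74e-07). The FGF receptor gene *htl* read 367.1, 339.2 and 270.7 in InR tissue against 342.2, 271.2 and 278.8 in control tissue, with groups that overlapped (log2 fold change 0.13, adjusted p = 0.698).

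Of 14 pan-glial and neuropil glial genes 2 rose and 3 fell, at a median of 0.01, against 6.06% and 3.71% of all genes. Beside *repo*, the gene *naz* rose by 0.64 (adjusted p = 0.0393 from limma), and it did not pass without any 1 of 7 arrays in turn (adjusted p = 0.0517 to 0.141). Those that fell were *gcm*, the transcription factor that starts glial fate in the embryo, *Eaat2*, a transporter of acidic amino acids, and *e*, which conjugates beta-alanine to amines. *gcm* read 1187, 1156 and 1051 in InR tissue against 1885, 1840 and 1669 in control tissue, with no overlap, and fell by 0.67 (adjusted p = 0.00103). *Eaat2* fell by 0.76 and *e* by 0.87. The regulator of G protein signalling gene *loco* and the gene *bnb* had higher signals in all 3 InR arrays than in any control array, but at 0.54 and 0.31 they were under 1.5-fold. *loco* passed without control array 1 or InR array 2 (0.61 and 0.62).

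Many genes of the septate junction, the sealing contact between barrier glia that also joins epithelial cells, rose. Of 24 analysed genes 13 rose and none fell, with a median log2 fold change of 0.88, against -0.03 over all probe sets and 6.06% of all genes called higher. The claudin gene *sinu* read 3344, 3513 and 3413 in InR tissue and 1047, 990.2 and 1027 in control tissue. It rose by 1.74 (standard error 0.07, adjusted p = 1.19e-07 from limma), with groups far apart for its spread. *Gli*, which acts where 3 cells meet, read 1377, 1997 and 1519 against 442.1, 350.7 and 387.6, and rose by 2.04 (standard error 0.16, adjusted p = 7.4e-06). *Tsf2*, a transferrin needed for junction assembly, read 1482, 1501 and 1426 against 421.8, 379 and 429.4, and rose by 1.84. *vari*, a scaffold protein of the MAGUK family, rose by 1.77, and *cold*, a Ly6 protein gene, by 1.76.

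The other 8 called junction genes rose by 0.82 to 1.69. Of these, *crim*, *crok* (both Ly6 protein genes), *Cont* (an immunoglobulin protein gene) and the claudin genes *pck* and *kune* rose by at least 2-fold, as did *bark*. *Nrg* and *cora* rose by 0.94 and 0.82. *Nrg* has 3 probe sets, which disagreed. A dimmer one also rose, by 1.27, and the other had -0.52 and was not called (adjusted p = 0.0365 from limma, under 1.5-fold). Among the 11 uncalled genes, *Lac* and *nrv2* were at 0.50 and 0.43, and 5 had values below 0. Of these *dlg1* (-0.24) and the polarity scaffold gene *scrib* (-0.58) lay wholly below the control arrays. *scrib* read 558.9, 454.6 and 507.2 in InR tissue against 864.9, 747 and 671.6 in control tissue, just under 1.5-fold (adjusted p = 0.0179), and was called lower without control array 3, InR array 1 or InR array 3 (-0.67, -0.66 and -0.59). Its probe sets disagreed, with 1 called higher (0.59) and 1 called lower (-0.74). The count of junction genes higher was 12 to 15 under the alternatives tried. In the direct test 8 of the 24 genes were higher in InR than in Htl[ACT] tissue, where 4.03% of all genes were, and 1 was lower, where 3.52% of all genes were. *sinu* read 1794, 1653 and 1847 in Htl[ACT] tissue, and was higher in InR tissue by 0.96 (adjusted p = 6.86e-06).

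**Figure D2:**
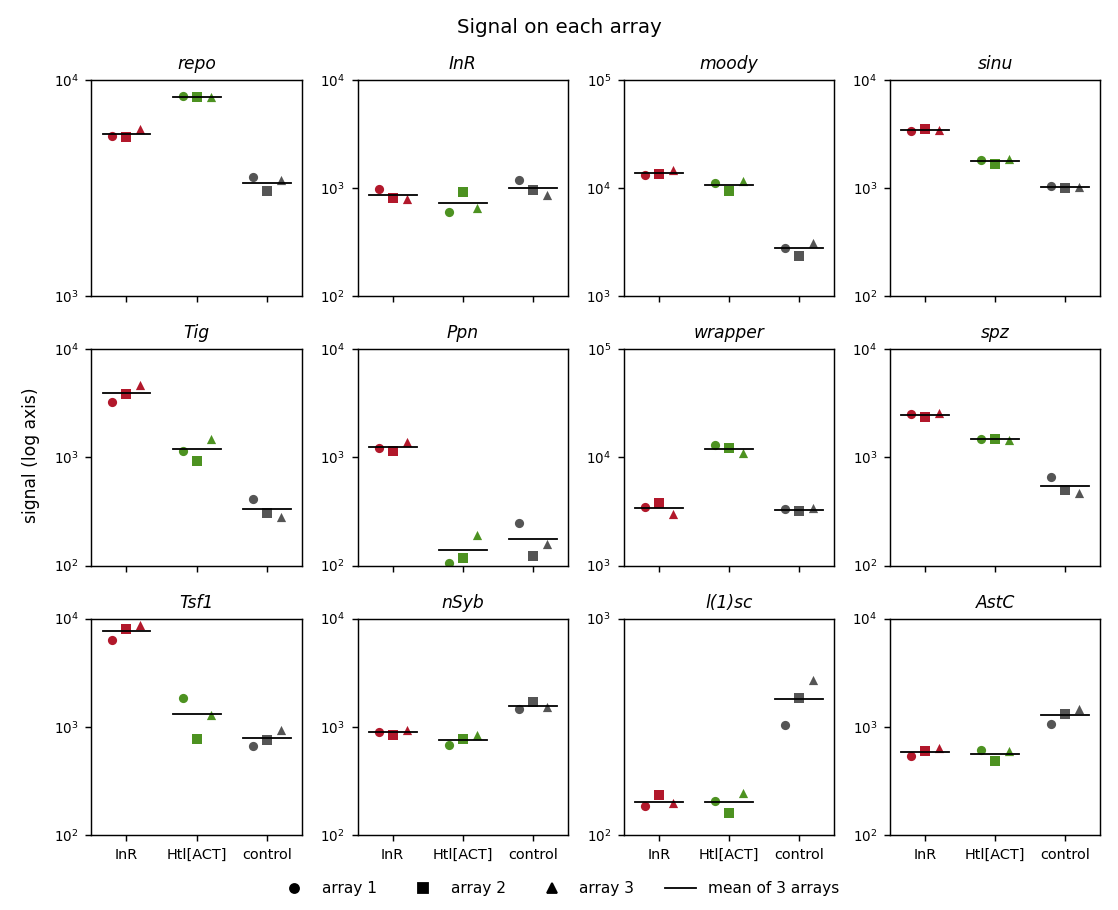
Signal of 12 genes on each array (vertical axes logarithmic), with InR, Htl[ACT] and control arrays from left to right, 1 marker per array and a bar at the mean of 3 arrays. The InR arrays lie above the control arrays for *repo*, *moody*, *sinu*, *Tig*, *Ppn*, *spz* and *Tsf1*, overlap with them for *InR* and *wrapper*, and lie below them for *nSyb*, *l(1)sc* and *AstC*.

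The basement membrane is the sheet of laminin, collagen IV, perlecan and nidogen that lies over the perineurial glia. It gave 8 of 18 genes higher and none lower, with a median of 0.70, against 6.06% of all genes called higher. *Tig*, which encodes the integrin ligand tiggrin, read 3214, 3851 and 4632 in InR tissue, against 412.4, 308.9 and 279.7 in control tissue. It rose by 3.55 on the log2 scale (standard error 0.19, adjusted p = 5.02e-07 from limma), and no InR array came within the control range. *Ppn*, which encodes the matrix protein papilin, read 1213, 1156 and 1383 against 247.4, 122.7 and 156.7, and rose by 2.89 (adjusted p = 2.68e-05). In Htl[ACT] tissue *Ppn* read 105.5, 117.9 and 192.9, within the range of the control arrays or below it, and the direct difference was 3.22 (adjusted p = 1.67e-05).

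The laminin subunit genes *LanA*, *LanB1* and *LanB2* rose by 1.29, 1.02 and 0.98. *trol*, the perlecan gene, read 7788, 9331 and 10070 in InR tissue against 2642, 2836 and 3271 in control tissue, and rose by 1.63 (adjusted p = 5.34e-06 from limma). *SPARC*, a collagen-binding protein gene, rose by 1.5 and the metalloprotease gene *AdamTS-A* by 1.54. The collagen IV gene *Col4a1* did not pass. It read 877.8, 1018 and 1223 in InR tissue against 652.6, 655 and 1153 in control tissue, with groups that overlapped (log2 fold change 0.38, 95% interval -0.15 to 0.91). In the direct test 7 of the 18 genes were higher in InR than in Htl[ACT] tissue and 1 was lower, against 4.03% and 3.52% of all genes. Hemocytes and fat body also make basement membrane proteins. Summed signals of hemocyte genes were 3007 to 4649 on InR arrays, against 2045 to 2419 on control arrays. Those of fat body genes were 25075 to 57284 on InR arrays, 23016 to 34543 on control arrays and 40462 to 41798 on Htl[ACT] arrays. The part of hemocytes and fat body in these increases was not tested.

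Of 10 genes of integrins and matrix proteases 3 rose and none fell, at a median of 0.46, against 6.06% of all genes higher. *Timp*, the inhibitor of matrix metalloproteases, read 2016, 1820 and 1554 in InR tissue against 324.6, 238.1 and 279.5 in control tissue, and rose by 2.68 (adjusted p = 2.35e-07 from limma). *scb*, an integrin alpha subunit gene, read 2026, 2054 and 1994 against 502.7, 326.4 and 265, and rose by 2.53 (adjusted p = 5.52e-06). A further alpha subunit gene, *if*, rose by 0.71 (adjusted p = 0.0153). It did not pass without control array 1, control array 2 or InR array 2 (adjusted p = 0.0523 to 0.0613).

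Genes of the insulin and TOR pathway moved in both directions. Of 27 analysed genes 3 rose and 2 fell, at a median of -0.01, where 6.06% of all genes were called higher and 3.71% lower. The genes that rose were extracellular or stress-related. *Sdr*, which encodes a secreted decoy of the insulin receptor, read 2455, 1881 and 1759 in InR tissue against 530.8, 488.4 and 501.4 in control tissue, and rose by 1.99 (standard error 0.14, adjusted p = 4.53e-06 from limma). *ImpL2*, which encodes a secreted protein that binds insulin-like peptides, read 3976, 3044 and 3439 against 1929, 2007 and 1974, and rose by 0.82 (adjusted p = 0.000307). *Sesn*, a sestrin that restrains TOR, rose by 1.33 (adjusted p = 0.0193), and did not pass without control array 2, control array 3 or InR array 1 (0.0764 to 0.0785). In the direct test *ImpL2* was lower in InR than in Htl[ACT] tissue by 1.44 (adjusted p = 6.45e-06). *Sdr* (0.15) and *Sesn* (0.08) were not called in this test. Of the 27 genes 0 were higher and 2 lower in InR than in Htl[ACT] tissue, against 4.03% and 3.52% of all genes.

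The insulin-like peptide genes *Ilp2* and *Ilp5*, which the insulin-producing neurosecretory cells of the brain express, both fell. *Ilp2* read 1103, 1529 and 1464 in InR tissue, against 2208, 2401 and 2717 in control tissue, a decrease by 0.85 (adjusted p = 0.0022 from limma). *Ilp5* read 1374, 2233 and 2038 against 3360, 3865 and 3739, a decrease by 0.99 (adjusted p = 0.00116). No InR array reached the control range for either gene. Compared directly with Htl[ACT] tissue, *Ilp2* and *Ilp5* were both at -0.03 and were not called. Of the kinases of the pathway, *Akt* had a log2 fold change of -0.37 with a 95% interval of -0.78 to 0.04, and *mTor* had -0.24 (-0.43 to -0.05, adjusted p = 0.0953), and neither was called.

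Of 7 analysed genes listed as FoxO targets, 2 rose and 1 fell, against 6.06% and 3.71% of all genes. *Nmdmc*, a mitochondrial folate enzyme gene, read 3259, 2999 and 3110 in InR tissue against 865.2, 918.1 and 959.2 in control tissue, and rose by 1.77 (adjusted p = 1.19e-07 from limma). *Sesn* is also of this list. *daw*, an activin-like ligand gene, fell by 1.0 (adjusted p = 0.0172), and did not pass without any 1 of 4 arrays (control 2, control 3, InR 2 or InR 3; 0.0622 to 0.0705). *foxo* itself read 203.4, 237.2 and 162.8 against 137, 149.6 and 158.8, with groups that did not overlap, and did not pass (0.42, adjusted p = 0.106). *Pepck1* was at 1.01 (adjusted p = 0.0653), and passed with the replicate number as a block (0.00344) and without Htl[ACT] array 1 or 2 (0.0477 and 0.00896). Compared directly with Htl[ACT] tissue, *Nmdmc* (0.02) and *daw* (0.05) were not called. The translation inhibitor gene *Thor* is not analysed here.

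Genes of the Toll pathway of innate immunity rose in part. The pathway gave 8 of 27 genes higher and 1 lower, at a median of 0.68, against 6.06% and 3.71% of all genes. In it, a protease cascade activates the ligand Spätzle. *spz*, the gene of this ligand, read 2520, 2350 and 2545 in InR tissue against 662.7, 497.8 and 466.4 in control tissue, and rose by 2.20 (standard error 0.12, adjusted p = 4.22e-07 from limma). *Myd88*, an adaptor of the receptor, read 873.9, 946.3 and 926.9 against 173.6, 209.5 and 229.7, and rose by 2.17 (adjusted p = 4.68e-07). The NF-kappaB gene *dl* read 219.5, 264 and 266.6 against 90.26, 65.33 and 109.8, and rose by 1.53 (adjusted p = 0.000433). A second, dimmer probe set of *dl* was at 0.53 and was not called (adjusted p = 0.3).

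The protease gene *spirit* and the serpin gene *nec* rose by 2.74 and 2.66, with control signals of 22.36 to 45.33, which lie near background. The serpin gene *Spn77Ba* read 1001, 1023 and 1043 in InR tissue against 308, 230.3 and 244 in control tissue, and rose by 1.98 (adjusted p = 1.07e-06 from limma). The receptor gene *Tl* fell by 0.60, and was under 1.5-fold without control array 1 or InR array 3 (-0.53 and -0.51). The receptor family gene *18w* (0.57) and the inhibitor *cact* (0.15) were not called, though *18w* passed without control array 1, InR array 2 or InR array 3 (0.61 to 0.70). In the direct test 7 Toll genes were higher and 1 was lower in InR than in Htl[ACT] tissue, against 4.03% and 3.52% of all genes. *spz* differed by 0.76 (adjusted p = 0.00154 from limma).

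Of 16 IMD pathway genes 4 rose, against 6.06% of all genes. They were the peptidoglycan recognition genes *PGRP-LA* (1.46), *PGRP-LB* (1.12) and *PGRP-LE* (0.76) and the kinase gene *IKKbeta* (0.66). The NF-kappaB gene *Rel* read 661.2, 731.5 and 758.9 in InR tissue against 503.6, 485.5 and 452.3 in control tissue, just under 1.5-fold (log2 fold change 0.58, adjusted p = 0.00111 from limma). *Rel* passed without control array 1, control array 2 or InR array 1 (0.61, 0.59 and 0.63). Antimicrobial peptide genes, the usual targets of both pathways in the fat body, gave 0 of 14 calls by limma, with 2 at an unadjusted p under 0.05, and 10 of the 14 had mean signals under 31.3. Their counts in the alternatives were 0 or 1.

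Secreted proteins of iron transport, complement type and the Idgf family included larger increases. Of 16 genes 7 rose and none fell, at a median of 1.26, against 6.06% of all genes higher. *Tsf1*, the hemolymph transferrin gene, read 6389, 7972 and 8735 in InR tissue, against 662.1, 758.1 and 923.6 in control tissue. It rose by 3.30 (standard error 0.25, adjusted p = 8.02e-06 from limma), and in Htl[ACT] tissue it read 1855, 778.3 and 1282, so that the direct difference was 2.64 (adjusted p = 5.93e-05). *Tep4*, a thioester protein gene related to complement, read 905.8, 1569 and 1071 against 142.6, 183.9 and 112.9, and rose by 3.0 (adjusted p = 6.79e-06). The chitinase-like growth factor genes *Idgf2*, *Idgf4* and *Idgf3* rose by 2.0, 1.66 and 0.93, and the oxidase gene *Duox* by 1.77. A second, dimmer probe set of *Idgf3* was at 0.40 and was not called. Hemocytes and fat body also express several of these genes, and the part of their summed signals, given with the basement membrane, was not tested.

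Neuronal genes stood lower by moderate amounts, relative to the RNA of the whole sample. Of 31 neuronal and synaptic genes 7 fell and none rose, with 29 log2 fold changes below 0 and a median of -0.50, while 3.71% of all genes were called lower. The vesicle protein gene *nSyb* read 887.4, 838.6 and 931.1 in InR tissue against 1464, 1704 and 1523 in control tissue, and fell by 0.82 (adjusted p = 0.000236 from limma). *Snap25*, of the same fusion complex, fell by 0.75, the vesicular acetylcholine transporter gene *VAChT* by 0.78 and the acetylcholine receptor gene *nAChRbeta1* by 0.69. *Gad1*, which makes GABA, fell by 0.93 (adjusted p = 0.0121), and did not pass without control array 3 or InR array 1 (0.0506 and 0.0566). The count of the list was 5 to 8 with 1 array left out, and 3 without InR array 2 and control array 2 together or without the intensity trend.

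Neuropeptide genes were lower as well. Of 32 genes 15 fell and none rose, at a median of -0.62, against 3.71% of all genes lower. *AstC*, the allatostatin C gene, read 537, 599.8 and 633.2 in InR tissue, against 1050, 1313 and 1474 in control tissue, and fell by 1.11 (standard error 0.14, adjusted p = 0.000288 from limma). *Crz*, the corazonin gene, read 704.1, 823.9 and 826.6 against 1214, 1555 and 1762, and fell by 0.93 (adjusted p = 0.00413). *CCHa2* fell by 0.85. *sNPF* fell by 0.92, and did not pass without any 1 of 4 arrays (the 3 controls or InR 3; 0.0626 to 0.0898). Prothoracicotropic hormone, *Ptth*, which stimulates ecdysone synthesis, read 284.8, 337.4 and 322.3 in InR tissue against 461, 477.2 and 445.8 in control tissue, just under 1.5-fold (-0.55, adjusted p = 0.00529). Without InR array 2 *Ptth* passed as lower (-0.61). The adipokinetic hormone gene *Akh*, expressed in the ring gland and not in the brain, went the other way, at 1354, 953.3 and 1019 against 454.5, 483 and 520.9 (1.17, adjusted p = 0.0526), and was not called. It passed in the fit of the 6 InR and control arrays alone (0.000615), with the replicate number as a block (0.000582) and without Htl[ACT] array 1 or 2 (0.00798 and 0.00355).

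Genes of neuroblasts, the stem cells that generate neurons, were also lower. Of 14 genes 8 fell and none rose, at a median of -0.65, against 3.71% of all genes lower. The proneural gene *l(1)sc* read 135.8, 152.4 and 139.8 in InR tissue, against 320.8, 430.4 and 521.3 in control tissue, and fell by 1.55 (standard error 0.18, adjusted p = 0.000176 from limma). *erm*, a zinc finger gene of intermediate progenitors, read 1563, 1516 and 1661 against 2941, 3036 and 2869, and fell by 0.90 (adjusted p = 9e-05). *wor*, a Snail family gene of neuroblasts, fell by 0.83, *numb*, a determinant of asymmetric division, by 0.86, and its fellow gene *insc* by 0.71.

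Cell cycle and replication genes shared the sign but seldom passed. Of 19 genes 17 had log2 fold changes below 0, at a median of -0.43, against -0.10 over the brighter probe sets. Only 1, *CycB3*, was called lower, a share near the 3.71% of all genes. It fell by 0.62, and was at -0.57, under 1.5-fold, without control array 3. *CycE* was at -0.58 (adjusted p = 0.0768 from limma, and 0.0445 without InR array 2) and *PCNA* at -0.22. Median centring gave 5 lower genes, while it raised the lower probe sets of the whole array from 552 to 850. Leaving out 1 array gave 0 to 3, with 2 without control array 1, 3 without InR array 2 and 0 without control array 3.

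Genes of lipid handling rose in part. Of 23 genes of lipid synthesis and storage 5 rose and none fell, at a median of 0.36, against 6.06% of all genes higher. The perilipin gene *Lsd-1* read 367.9, 550.2 and 495.1 in InR tissue against 161.1, 201.5 and 131.6 in control tissue, and rose by 1.52 (adjusted p = 0.000426 from limma). The neutral ceramidase gene *CDase* read 1530, 1501 and 1422 against 791.1, 733.7 and 765.6, and rose by 0.96 (adjusted p = 4.64e-06). The sterol transporter gene *Npc1a* rose by 0.78. The lipocalin gene *NLaz* read 9511, 6296 and 7897 in InR tissue, against 5163, 909.3 and 1098 in control tissue, of which 1 stood apart. It rose by 2.17 (adjusted p = 0.0192), and did not pass without any 1 of 4 arrays (control 2, control 3, InR 1 or InR 3; 0.0543 to 0.0826). The lipoprotein receptor gene *LpR2* rose by 0.88, and missed the limit without InR array 2 (0.0533).

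Of 14 genes of fatty acid oxidation 3 rose, at a median of 0.45, against 6.06% of all genes. They were *Echs1* (0.74), *CRAT* (0.64) and *CPT2* (0.62, and 0.56 without control array 2). In the direct test 6 of these 14 genes were lower in InR than in Htl[ACT] tissue and none was higher, against 3.52% and 4.03% of all genes. Of 19 genes of glycolysis and trehalose use 3 rose and 1 fell, against 6.06% and 3.71% of all genes. *Pfk*, phosphofructokinase, read 4348, 4479 and 3985 in InR tissue against 2065, 2393 and 3114 in control tissue (log2 fold change 0.78, adjusted p = 0.00942 from limma), and *fbp*, which catalyses the reverse step, rose by 0.89. *Pepck2* (1.44) and the hexokinase gene *Hex-A* (-1.07) each lost the call without control array 3, InR array 1 or InR array 2 (adjusted p = 0.0743 to 0.0953).

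Of 33 glutathione S-transferase genes, which conjugate toxic and oxidised compounds, 14 rose and none fell, at a median of 0.52. Of all genes 6.06% were called higher. *GstE1* read 1750, 1769 and 1953 in InR tissue against 687.9, 696.4 and 696.5 in control tissue, and rose by 1.39 (adjusted p = 1.13e-06 from limma). *GstE6* read 732.1, 872.2 and 1383 against 218.2, 173.3 and 264.9, and rose by 2.15 (adjusted p = 0.000631). *GstD2* rose by 2.30. *GstE9* read 262, 257.8 and 228.3 against 4.754, 1.664 and 13.22, with control signals near background. A second probe set of *GstE9*, near background in both groups, was at 0.53 and was not called. *GstD5* was called higher, but read 23.52 or less on every InR array and 2.585 or less on every control array, so that both groups lay near background. *GstE14* (3.86) did not pass without control 1, InR 1 or InR 2 (adjusted p = 0.0654 to 0.0834). Members of this family resemble each other in sequence, and whether probe sets read a neighbour was not tested. Of 21 lysosomal genes 6 rose and none fell, including the cathepsin genes *CtsL2* (5.66) and *CtsF*, which read 10750, 12090 and 11640 against 5874, 5776 and 5036 and rose by 1.05 (adjusted p = 8.26e-06). *Sgsh*, *spin* and *LManII* rose by 1.17, 0.90 and 0.61, and *LManII* was under 1.5-fold without control array 3 or InR array 2 (0.52 and 0.58).

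Among signalling genes, the BMP ligand gene *dpp* read 676.1, 618.8 and 528.2 in InR tissue against 159.8, 142.4 and 188.2 in control tissue, and rose by 1.90 (standard error 0.16, adjusted p = 1.31e-05 from limma). *gbb*, a second BMP ligand gene, rose by 0.62, and the BMP-binding protein gene *cv-2* by 1.76. Of the 19 BMP and activin genes 4 rose and 3 fell, against 6.06% and 3.71% of all genes. The gap gene *kni* (1.16) passed at adjusted p = 0.0479 and failed without any 1 of 8 arrays (0.0565 to 0.157), and with the replicate number as a block (0.0727). *tld* and *Actbeta* fell by 0.85 and 0.59. *tld* lost the call without any 1 of 4 arrays (adjusted p = 0.0989 to 0.131) and *Actbeta* without any 1 of 3 (under 1.5-fold, -0.58 to -0.53). The TNF ligand gene *egr* read 3387, 3195 and 3143 against 2400, 1983 and 1906 and rose by 0.64 (0.57 without control array 3), and *grk*, an EGF receptor ligand gene best known from the ovary, by 1.37. A second, dimmer probe set of *egr* was at 0.40 and was not called.

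The TRP channel genes *pyx* and *pain*, known for sensing heat and noxious stimuli, rose by 2.55 and 1.39. They were 2 of 12 genes of their list, against 6.06% of all genes called higher. *pyx* read 288.4, 354.8 and 403.6 in InR tissue, against 58.81, 49.49 and 70.29 in control tissue (adjusted p = 8.63e-05 from limma). Of 8 analysed transcription factor genes that the study tabled for InR tissue, 7 rose, at a median of 0.91. They were *dl*, *kipf* (1.31), *kni*, *kay*, *exp* (0.81), *repo* and *ci* (0.62), the transcription factor of Hedgehog signalling, which was under 1.5-fold without control array 3 or InR array 1 (0.52 and 0.57). The other, *Pif1A*, was near background in both groups, at 0.9571, 7.537 and 16.78 in InR tissue against 3.385, 10.15 and 7.712 in control tissue, and was not called. The study tabled *Pif1A* as increased, and had left out probes classed as absent in any sample. Whether it read this probe set was not tested, so its *Pif1A* result is not checked here. The study chose these genes on these samples, so the count is not independent evidence. *exp* did not pass without any 1 of 5 arrays (adjusted p = 0.055 to 0.0825), and the mean of its probe sets turned its sign. With 1 array left out the count was 4 to 6, and it was 4 without InR array 1.

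The largest increases were mostly in genes with control signals near background, so that their order is not well measured. Differences that come with the UAS-InR line cannot be told apart from those of receptor expression here. *Cyp4p2*, a cytochrome P450 gene, read 668.6, 680.2 and 813 in InR tissue, against 1.997, 11.03 and 2.476 in control tissue and 3.566, 3.929 and 10.02 in Htl[ACT] tissue. The fit put the increase at 7.56 on the log2 scale (standard error 0.67; limma, adjusted p = 2.19e-05). *Cyp4p1*, of the same family, rose by 4.15. The cuticle pigmentation gene *y* read 1351, 1950 and 1954 against 22.62, 20.2 and 7.261 in control tissue, and rose by 6.86 (adjusted p = 9.86e-06), and *yellow-f* rose by 3.03 but not without control array 3 or InR array 2 (adjusted p = 0.0536 and 0.0677).

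*CtsL2*, a cathepsin gene, read 623.1, 729.2 and 688.1 in InR tissue, against 12.77, 11.09 and 16.93 in control tissue. *Eip63E*, a cyclin-dependent kinase gene, read 1794, 1562 and 1444 against 64.67, 68.33 and 37.55, and rose by 4.86 (standard error 0.21, adjusted p = 1.19e-07 from limma). It read 1862, 2474 and 1883 in Htl[ACT] tissue, and the direct difference of -0.37 did not pass (adjusted p = 0.348). *CG18557*, *CG10962*, *CG11668*, *CG6337*, *CG31219* and *CG10764*, known here only by number, rose by 3.92 to 5.33, and all 6 were higher in InR than in Htl[ACT] tissue in the direct test.

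The largest decrease was in *CG4476*, at 78.25, 31.13 and 22.97 in InR tissue against 447.5, 565.5 and 710.2 in control tissue, which fell by 3.88 (standard error 0.39, adjusted p = 5.89e-05 from limma). *GILT3*, of a thiol reductase family, read 84.59, 90.27 and 113.8 against 676.2, 625.2 and 520, and fell by 2.66 (adjusted p = 6.93e-07). *ckn* fell by 2.15, and all 3 genes were lower in InR than in Htl[ACT] tissue too. *Ktl* read 518.9, 451 and 443 against 1516, 1540 and 1697, and fell by 1.75. *CG6126* and *MFS3* fell by 2.04 and 1.74, *Adk3*, an adenylate kinase gene, by 1.64, and *rgr* and *Ocho* by 1.33 and 1.30. *Cyp28a5* (-1.79) and *NimA* (-1.34), a gene of the Nimrod family, lost the call without any 1 of 6 and of 4 arrays (adjusted p = 0.0558 to 0.15).

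Genes of tissues that adjoin the CNS are given apart, since what was taken with the CNS may vary between dissections. The ring gland is the endocrine organ attached to the brain that makes ecdysone and juvenile hormone. It gave 9 of 13 genes higher and 1 lower, at a median of 1.63, against 6.06% and 3.71% of all genes. The ecdysone synthesis genes *sad*, *spok*, *sro*, *nvd*, *dib* and *ouib*, the last a zinc finger gene that regulates such enzymes, all rose. *sad* read 790.7, 661.3 and 380.6 in InR tissue, against 109.3, 125 and 57.39 in control tissue, and rose by 2.66 (standard error 0.47, adjusted p = 0.00273 from limma). *spok* read 1203, 1189 and 447.4 against 141.5, 129.7 and 92.29, and rose by 2.85 (adjusted p = 0.00294). InR array 3 was the lowest InR array for both genes, and still above every control array. *sro*, *nvd*, *ouib* and *dib* rose by 3.32, 2.93, 2.37 and 1.63 at lower signals. *ouib* passed at an adjusted p of 0.0453 and did not pass without any 1 of 7 arrays (0.0511 to 0.129). In the same list *Npc1a*, which is not particular to the gland, rose by 0.78.

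*jhamt*, which makes juvenile hormone in the corpus allatum of the gland, read 154.6, 110.2 and 91.53 in InR tissue against 12.5, 10.56 and 33.55 in control tissue. It rose by 2.82 (adjusted p = 0.0114 from limma), and missed the limit without InR array 1 (0.0505). *Start1*, a sterol carrier gene, read 1835, 1674 and 1739 against 992.8, 1036 and 892.1, and rose by 0.85 (adjusted p = 0.0001). *mld*, a zinc finger gene that acts in ecdysone synthesis, fell by 0.62 and was under 1.5-fold without control array 1 or InR array 3. The summed signal of the list was 7842 to 9858 on InR arrays, against 6685 to 7380 on Htl[ACT] arrays and 5007 to 5452 on control arrays. In the direct test 5 of the 13 genes were higher in InR than in Htl[ACT] tissue and none was lower, against 4.03% and 3.52% of all genes.

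The count of ring gland genes higher was 7 to 9 with 1 array left out, and 5 without InR array 2 and control array 2, and with no intensity trend also 5. The defining gene *phm* is not analysed here. Whether the gland was kept with each CNS to the same extent was not tested. Of 17 genes of the ecdysone response 1, *ImpL2*, rose and none fell, at a median of -0.02, a share near the 6.06% of all genes called higher.

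**Figure D3:**
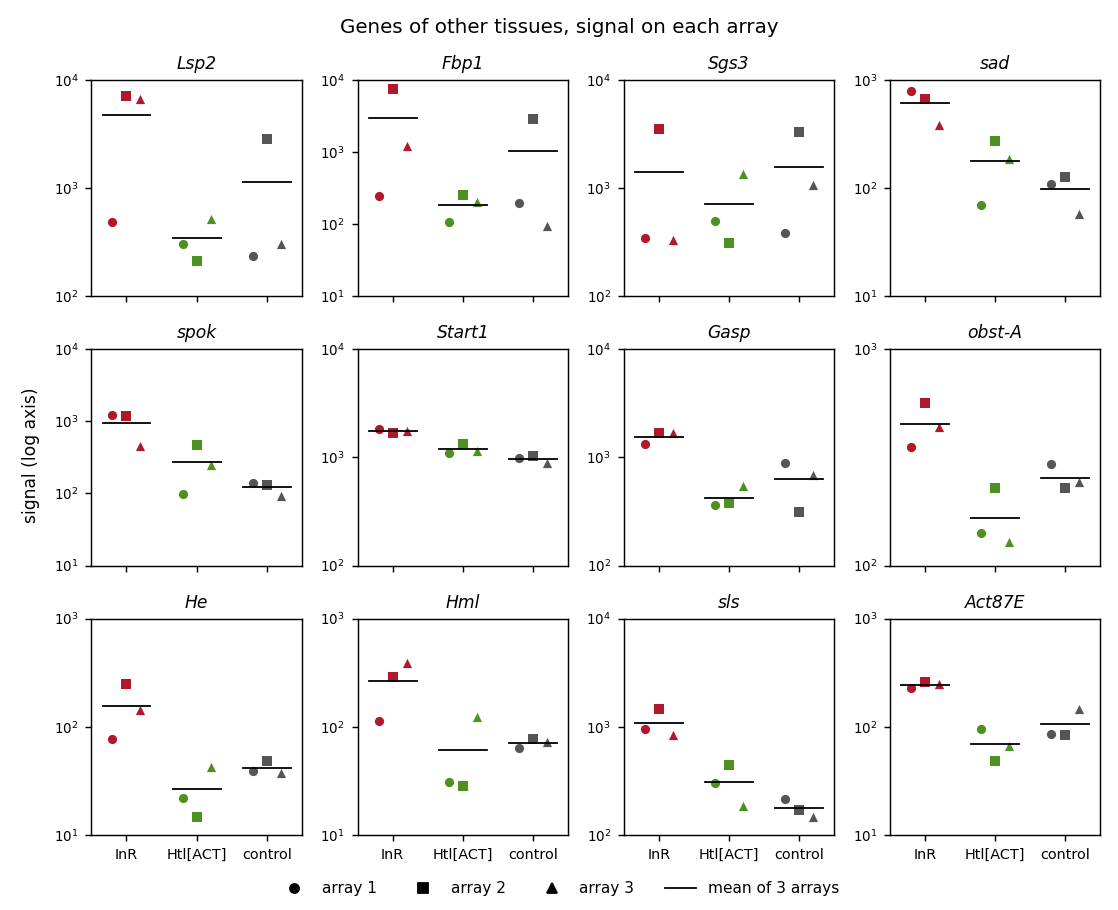
Signal on each array (vertical axes logarithmic) of fat body (*Lsp2*, *Fbp1*), salivary gland (*Sgs3*), ring gland (*sad*, *spok*, *Start1*), tracheal (*Gasp*, *obst-A*), hemocyte (*He*, *Hml*) and muscle (*sls*, *Act87E*) genes, with InR, Htl[ACT] and control arrays from left to right and a bar at the mean of 3 arrays. *Lsp2* is high on InR arrays 2 and 3 and control array 2 and *Sgs3* on InR array 2 and control array 2, whereas the 3 InR arrays of *sad*, *spok*, *Start1* and *Gasp* all lie above the control arrays.

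Fat body genes were high on single arrays of both genotypes. The larval serum protein gene *Lsp2* read 483.7, 7047 and 6645 in InR tissue, against 235.9, 2858 and 302.7 in control tissue. The groups overlapped, and the log2 fold change of 2.26 had a standard error of 1.06 (adjusted p = 0.204 from limma). It passed with the replicate number as a block (adjusted p = 0.0261), and without control array 2 or InR array 1 (0.0431 and 0.0236). *Fbp1*, a receptor gene for larval serum proteins, read 248.3, 7499 and 1209 against 193.2, 2822 and 92.99, and the odorant-binding protein gene *Obp99b* had the same high arrays. *Obp99b* was not called (2.17, adjusted p = 0.229), and passed with the block (0.0349) and without control array 2 or InR array 1 (0.0417 and 0.0269). Of 14 fat body genes 2 rose, against 6.06% of all genes. They were *regucalcin* (1.61, adjusted p = 1.44e-05 from limma) and the lipid transfer gene *Mtp* (0.63, and under 1.5-fold without control array 3 or InR array 3). The count was 5 with the replicate number as a block, 5 without InR array 1, 4 without control array 2 and 1 without InR array 3 or control array 3. Summed signals of the list were 25075, 57284 and 45925 on InR arrays, against 23363, 34543 and 23016 on control arrays. On Htl[ACT] arrays the sums were 40538, 40462 and 41798. There *regucalcin* read 2481, 2284 and 2706 and *Mtp* 2882, 3088 and 2876, while *Lsp2* read 305.1, 213.1 and 515.8. Whether the 2 called genes were read from fat body or from cells of the CNS was not tested. The larval serum protein 1 genes are not analysed here.

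Tracheal genes, of the air tubes that run over and into the brain, gave 4 of 12 higher and none lower, at a median of 0.70. Of all genes 6.06% were called higher. *Gasp*, a chitin-binding protein gene, read 1315, 1663 and 1661 in InR tissue against 888.5, 310 and 683.4 in control tissue, and rose by 1.42 (adjusted p = 0.00975 from limma). *pio*, *obst-A* and *serp* rose by 0.88, 0.81 and 0.74. *pio* and *obst-A* did not pass without any 1 of 4 arrays (adjusted p = 0.059 to 0.144), and *serp* was at 0.58 without control array 2. The count was 1 without control array 2, 2 without control array 3 or InR array 2, and 0 with no intensity trend. *btl*, the FGF receptor gene that marks tracheal cells, read 49.35, 49.94 and 55.33 against 22.81, 23.12 and 1.16, near background, and was not called (2.60, adjusted p = 0.185). Summed tracheal signals were 4233 to 4828 on InR arrays and 2074 to 3345 on control arrays.

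Hemocyte genes, of the circulating blood cells, gave 5 of 17 higher and none lower, at a median of 1.34, against 6.06% of all genes higher. The control signals of the 5 were at or below 122.5. *He* read 77.79, 246.3 and 141.4 in InR tissue against 39.2, 48.32 and 37.72 in control tissue, and rose by 1.75 (adjusted p = 0.0281 from limma). *eater*, a phagocytic receptor gene, *srp*, the GATA factor of blood and fat body, *PPO1*, a prophenoloxidase gene, and *NimB4* rose by 2.19, 3.18, 1.66 and 1.51. All 5 were lost without InR array 2 or InR array 3, and the count was 0 without control array 1, InR array 2 or InR array 3, 1 without control array 2 or 3, and 2 and 3 without Htl[ACT] array 1 and 2. It was 7 with the replicate number as a block and 0 without the intensity trend. *Hml*, a defining gene, read 113.7, 290.6 and 390.2 against 63.36, 77.7 and 72.57 (1.72, adjusted p = 0.0595). *Hml* passed with the replicate number as a block (0.00449) and without InR array 1 (0.0225) or Htl[ACT] array 3 (0.015). The summed list was at 3007 to 4649 on InR arrays, against 2045 to 2419 on control arrays, with 8 of the 17 genes at mean signals under 31.3.

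Muscle genes gave 2 of 13 higher, at a median of -0.20, against 6.06% of all genes. They were *sls*, the titin-like gene (2.58, adjusted p = 0.000154 from limma), and *Act87E* (1.26, adjusted p = 0.0102). *sls* read 952.5, 1456 and 834.1 in InR tissue against 216.3, 170.5 and 146.6 in control tissue, with no overlap. *Mhc* is not analysed here. Salivary gland genes gave 0 of 8 calls by limma, with 1 at an unadjusted p under 0.05, and *Sgs3*, a glue protein gene, read 346.8, 3494 and 329.2 in InR tissue against 380.6, 3269 and 1067 in control tissue. Imaginal disc and eye genes gave 1 higher and 3 lower of 11, against 6.06% and 3.71% of all genes. There were 5 lower with the replicate number as a block. *sev*, an eye receptor gene, rose by 1.20, while *nub*, *dac* and *ato* fell by 1.01, 0.71 and 0.66. *dac* read 1450, 1204 and 1249 in InR tissue against 2523, 1969 and 1907 in control tissue, and was at -0.58 without control array 1. Whether the genes of this list were read from discs or from cells of the CNS was not tested. Leaving out InR array 2 and control array 2, in all lists together, ended 46 of 160 calls of named genes.

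**Figure D4:**
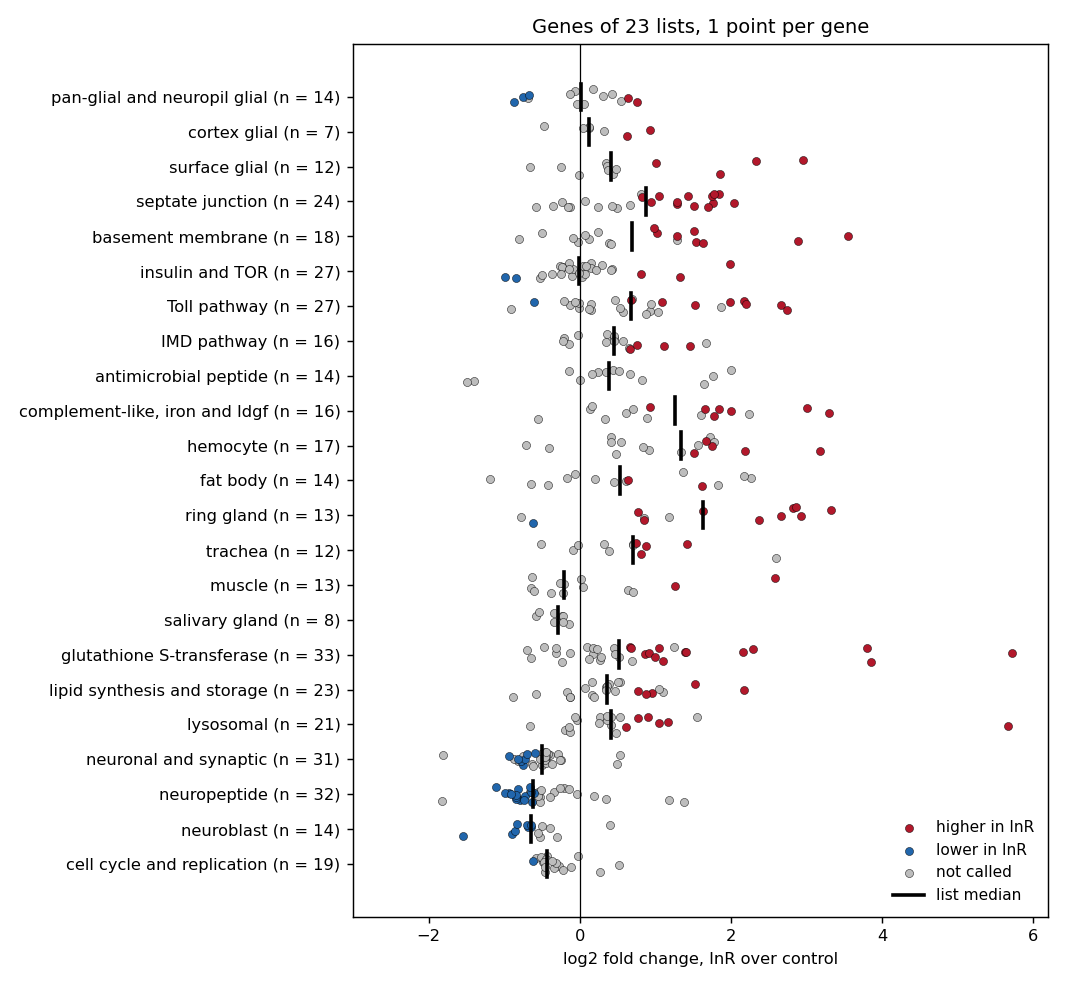
Log2 fold change of InR over control (horizontal axis) for each analysed gene of 23 lists (rows, with the number of genes), called genes in red (higher) or blue (lower) and a black bar at each list's median. Septate junction, basement membrane, complement-like and ring gland lists lie to the right of 0 and the neuronal, neuropeptide, neuroblast and cell cycle lists to the left, at medians of -0.43 to -0.65.

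The lists without any call were heat shock, ribosome biogenesis with Myc, and sex and dosage genes, beside the antimicrobial peptide and salivary gland genes. Ribosome biogenesis genes, a usual readout of TOR activity, had log2 fold changes of -0.33 to 0.12 over 18 genes, with 3 at an unadjusted p under 0.05 and 0 called by limma. The 8 heat shock genes had 2 at an unadjusted p under 0.05, as had the 5 sex and dosage genes.

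The direct comparison sets InR tissue against Htl[ACT] tissue. It gave 593 probe sets higher and 505 lower in InR tissue. Median centring gave 257 higher and 1056 lower, so that the balance of this comparison depended on the scaling. *repo*, at 8386, 8349 and 8359 in Htl[ACT] tissue, was lower in InR tissue by 0.57 (adjusted p = 0.000434 from limma, under 1.5-fold). *Tig*, *Ppn*, *Tsf1*, *spz* and *sinu* were higher in InR tissue. Other lists had more genes lower, where 3.52% of all genes were lower and 4.03% higher. Lower and higher were 8 and 2 of 14 pan-glial and neuropil glial genes, and 5 and 0 of 7 cortex glial genes. The counts were 8 and 2 of 23 lipid synthesis and storage genes, and 8 and 2 of 33 glutathione S-transferase genes.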

How the data were processed

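RNA from whole CNS samples (500.0 ng each) was hybridised to Affymetrix Drosophila Genome 2.0 arrays. The deposited values are the authors' MAS5 signal intensities, 1 per probe set and array, made with Affymetrix Expression Console per the submitters' processing notes and scaled to a 2% trimmed mean of 500.0. Versions are not given in the sources used here, and detection calls were not used. Of 18952 rows, 183 control probe sets were left out. Of the 18769 others, 13647 named 1 gene in the platform annotation, 402 several and 4720 none. No symbol needed updating in the gene table, which held the gene of 13544 probe sets.

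Samples were grouped by their titles. Log2 signals of all 9 arrays were fitted in limma 3.58.1 (R 4.3.3; lmFit and eBayes with an intensity trend, 6 residual and 5.06 prior degrees of freedom), and p-values were adjusted by the Benjamini-Hochberg method over all probe sets. The fit takes the place of the study's permutation method, since 3 against 3 arrays allow few permutations. No filter on low signals was used. Of 1094 genes with several probe sets, the brightest by mean log2 signal stood for the gene. Without counts of molecules, the number of arrays limits the precision. For InR against control, 20 data sets of the 18769 probe sets were simulated, with noise independent between probe sets. In each, 200 probe sets were changed, drawn only from those above the median mean signal. Of these, 74.0% of 2-fold and 92.4% of 4-fold changes were recovered, with a mean of 7.2 false calls. Recovery near background was not tested. Python 3.11.15, pandas 2.3.3, numpy 2.4.6 and matplotlib 3.10.9 were used for the summaries and plots.

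The comparison and the 38 gene lists (592 genes analysed, 135 list symbols not analysed here) were chosen with earlier results of these data known. Named are *repo*, *InR*, *htl*, *foxo* and defining genes of tissues, the 12 largest increases and 12 largest decreases among called genes whose groups did not overlap and whose higher mean signal was at least 200.0, and from every list at most 5 called members, those that changed most, with any that went the other way. *elav*, *Fbp1*, *Obp99b*, *Sgs3*, *Akh*, *loco*, *bnb*, *nrv2*, *Rel*, *Pepck1*, *Ptth*, *Lac*, *18w*, *mTor*, *Akt*, *cact*, *Col4a1*, *PCNA*, *CycE*, *Cont*, *GstE1*, *Idgf3*, *Idgf4*, *LManII*, *LanA*, *LanB1*, *LanB2*, *Lsd-2*, *Nrg*, *Start1*, *bark*, *ci*, *cora*, *crim*, *crok*, *dib*, *gbb*, *kune*, *nAChRbeta1*, *ogre*, *ouib*, *pck*, *scrib*, *dlg1*, *Tret1-1*, *pippin* and *Pif1A* were also named after their values were seen, where the rule did not already name them. Alternatives were another scaling, filter, pseudocount (6.04), variance model, set of arrays, probe set rule or call rule, and the replicate number as a block.

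InR and control samples share replicate numbers in their titles, and the labels do not say what a number stands for. Same-numbered arrays deviated from the means of their groups together, with correlations of 0.46, 0.32 and 0.24 over the probe sets above the median signal, and at 0.12, 0.07 and 0.07 over all probe sets. Numbers were taken as pairing from the brighter probe sets only, which is a reading of the values and not of the design.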

Additional observations from a re-analysis of the deposited data

How the results depend on the processing

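Leaving out 1 array in turn gave 766 to 905 probe sets higher and 436 to 579 lower in InR than in control tissue (892 and 552 with all arrays), and 423 to 629 higher and 420 to 524 lower in InR than in Htl[ACT] tissue (593 and 505). Median centring, which moved the median log2 fold change over all probe sets to -0.14, against -0.03 before it, gave 850 lower against control, and 257 higher and 1056 lower against Htl[ACT]. Keeping the 6257 brightest probe sets gave 539 higher and 356 lower against control, and 284 higher against Htl[ACT], with fewer features tested. With no intensity trend 356 were lower against control and 362 higher against Htl[ACT]. Without InR array 2 and control array 2, 309 were lower against control and 389 higher against Htl[ACT]. Without InR array 3 as well, which left 1 InR array assumed to vary like the others, 399 were higher and 95 lower against control, and 143 higher and 287 lower against Htl[ACT]. At 2-fold 566 were higher and 98 lower, and at an adjusted p of 0.01 325 were lower. With the replicate number as a block 971 were higher and 655 lower. Of 160 called named genes the block ended 1 call (*kni*), quantile normalization 5, median centring 16 and no intensity trend 41. *repo* and *InR* kept their direction and their side of the threshold under every alternative run. Among named genes *wrapper* was at -0.062 with median centring, -0.033 to 0.138 with 1 array left out (-0.033 without InR array 2) and -0.056 without InR array 2 and control array 2, *exp* at -0.265 as the mean of its probe sets, and *Sgs3* at -1.701 to 0.208 with 1 array left out (0.208 without control array 2, 0.003 without InR array 3). *Pif1A*, near background, was at 0.016 with the pseudocount and at -1.258 to 0.808 with 1 array left out (0.808 without InR array 1). The cause was not tested where none is given. Precision was lower near background, with a median standard error of 0.48 over all probe sets and 0.13 over the brighter ones.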
